A study of Mus musculus with 8 samples.

Results

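The 6 genes Pkd1l2, Iyd, Azgp1, Hapln4, Fut1 and Fam132a, called the members here, were followed in polyA RNA from whole mouse pancreas. They were picked out of 36432 gene identifiers because their deposited FPKM in every library labelled Gata6 lox/lox lay below every control. The falls themselves are therefore given as a description, and calls of the members on this contrast carry no weight. The tested animals carried Ptf1a-Cre +/KI together with Gata6 lox/lox, and the controls carried Ptf1a-Cre +/KI alone. Both groups were 6 to 8 weeks old and of mixed strain, and each held 4 mice with 1 library per mouse. Ptf1a-Cre is a knock-in that expresses the recombinase from the Ptf1a locus, so all 8 animals had a modified Ptf1a allele, and recombination is limited to cells that descend from Ptf1a-expressing pancreatic progenitors. Cells of other origin in the same tissue keep an intact Gata6. Values are FPKM, a measure meant to normalise fragment counts to transcript length and library size, divided by 100000 in every library. Their sums still differed between libraries, as given below.

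GATA6 is a zinc finger transcription factor that binds DNA at GATA motifs, and in the mouse pancreas it acts in acinar cells, the source of the digestive enzymes. The 6 members belong to no common pathway. Pkd1l2 encodes a large membrane protein of the polycystin family. Iyd encodes iodotyrosine deiodinase, the enzyme that recovers iodide from iodinated tyrosines in the thyroid. Azgp1 encodes zinc-alpha-2-glycoprotein, a secreted protein with the fold of a class I histocompatibility molecule that is known for its action on fat cells. Hapln4 encodes a link protein that joins hyaluronan to proteoglycans in brain matrix. Fut1 encodes a fucosyltransferase that makes the H blood group structure. Fam132a, now named C1qtnf12, encodes adipolin, a secreted protein of the C1q/TNF family that raises insulin sensitivity in mice. Cela1 encodes an elastase made by acinar cells, and its level was used to ask whether the falls followed that of the acinar enzymes.

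Because the question concerns a DNA-binding factor, the 250 bases before the RefSeq start of 3 members and of Cela1 are shown (GRCm38.p6, written 5′ to 3′ along the gene). Capitals mark GATA sites, searched with the letters AGATAA or their variant AGATAG, or with the letters TGATAA or their variant TGATAG, and E-boxes, searched with the letters CACCTG or with the letters CAGCTG, each on both strands; no match overlapped another. An E-box is a motif bound by dimers of basic helix-loop-helix factors such as PTF1A. The windows are chr8:117082450-117082699 on the minus strand for Pkd1l2, chr5:137981271-137981520 on the plus strand for Azgp1, chr7:45617356-45617605 on the plus strand for Fut1 and chr15:100687921-100688170 on the minus strand for Cela1.
Pkd1l2: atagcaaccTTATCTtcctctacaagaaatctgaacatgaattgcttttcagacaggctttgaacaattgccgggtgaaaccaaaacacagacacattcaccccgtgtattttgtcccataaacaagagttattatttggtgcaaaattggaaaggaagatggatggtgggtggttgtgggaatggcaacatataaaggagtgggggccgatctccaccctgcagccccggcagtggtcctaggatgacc
Azgp1: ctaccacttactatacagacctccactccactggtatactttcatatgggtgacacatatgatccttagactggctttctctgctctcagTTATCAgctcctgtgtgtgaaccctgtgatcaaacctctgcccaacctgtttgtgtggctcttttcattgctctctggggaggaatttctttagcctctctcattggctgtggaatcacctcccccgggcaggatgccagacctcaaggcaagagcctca
Fut1: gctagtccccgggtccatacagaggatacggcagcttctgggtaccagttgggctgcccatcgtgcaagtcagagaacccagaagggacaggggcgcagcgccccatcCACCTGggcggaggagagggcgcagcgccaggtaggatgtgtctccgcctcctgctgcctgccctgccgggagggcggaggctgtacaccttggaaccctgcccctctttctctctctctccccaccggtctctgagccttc
Cela1: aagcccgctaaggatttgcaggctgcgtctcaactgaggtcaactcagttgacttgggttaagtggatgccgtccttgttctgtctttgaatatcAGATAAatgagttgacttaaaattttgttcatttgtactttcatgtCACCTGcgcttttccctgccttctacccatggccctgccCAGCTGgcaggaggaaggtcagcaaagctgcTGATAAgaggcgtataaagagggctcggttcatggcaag
Counted from the start site, Pkd1l2 held TTATCT at position -241 and Azgp1 held TTATCA at position -160, each a GATA site read from the other strand. Fut1 held a single E-box at position -142 and no GATA site. Cela1 held GATA sites at positions -155 and -39 and E-boxes at -109 and -70. The 250 bases of Iyd, at chr10:3540024-3540273 on the plus strand, held none of these motifs. Hapln4 and Fam132a were without an entry. Of 32851 windows of this length in the promoter table, 26.5% held a GATA site, 17.2% held CACCTG and 13.0% held CAGCTG, so such matches are frequent and are given as descriptions only.

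The libraries differed in ways that bear on every value below. The deposited intervals implied 4815873 to 7451554 fragments per lox/lox library and 6020901 to 7304521 per control. These totals leave out 8 genes without an estimate in at least 1 library, digestive enzymes among them, and so are not full depths. The FPKM of all genes summed to 2.34e+10 to 1.30e+11 in lox/lox libraries and 1.42e+11 to 1.86e+11 in controls as deposited, so the worth of 1 fragment was not the same in all libraries. Cela1 stood at 131, 29364, 2977 and 37260 rescaled FPKM in lox/lox libraries 1 to 4, against 91578, 93114, 92192 and 68300 in controls 1 to 4. Lox/lox libraries 1 and 3 thus stood apart with very little elastase, and results are also given without them. The summed level of 8 acinar markers was 595 to 67069 in lox/lox libraries and 114350 to 160338 in controls. Of the 8, 6 were lower without overlap, against 7.62% of all tested genes. Among all tested genes, 10.9% were higher without overlap. Summed myeloid markers were 201 to 776 in lox/lox libraries and 97.7 to 153 in controls, with 7 of 8 higher without overlap. Summed fibroblast markers were 333 to 1253 in lox/lox libraries and 206 to 284 in controls, with 6 of 8 higher without overlap. Adipocyte markers were 380 to 497 in lox/lox libraries and 75.8 to 225 in controls, also with 6 of 8. No adipocyte marker was at 0 in any library. Summed duct and endothelial markers overlapped between the groups, with duct markers at 129 to 243 in lox/lox libraries and 171 to 227 in controls and endothelial markers at 30.8 to 44.4 in lox/lox libraries and 35.2 to 45.4 in controls. Summed islet markers were 764 to 5978 in lox/lox libraries and 560 to 1480 in controls. Lymphocyte markers were 16.8 to 37.5 in lox/lox libraries and 5.53 to 19.6 in controls, with Cd3g at 0 in at least 1 library. The 10 liver and gut markers summed to 1.36 to 4.29 in lox/lox libraries and 0.713 to 1.51 in controls, and 8 of them, among them Apoa1 and Fabp1, were at 0 in at least 1 library. The part of these cell types in the falls of the members was not tested, and in whole tissue fewer cells of a type and less RNA per cell cannot be told apart. Gata6 itself was measured over the whole gene and not over the deleted part, so its level does not check the labels. It was 4.81, 5.12, 4.90 and 4.12 in lox/lox libraries 1 to 4 against 2.76, 2.12, 2.62 and 2.45 in controls 1 to 4, higher in 4 of 4 lox/lox libraries (two-sided exact permutation p = 0.0286, the smallest that 4 against 4 can give).

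All 6 members were lower in every lox/lox library than in any control, as the choice of members fixed. Among 11860 tested genes, 7.62% were lower without overlap. By the ratio of the group means, Pkd1l2 showed the deepest fall and Fut1 and Fam132a the shallowest, so that the description of these genes as lost fits Pkd1l2 and not Fut1 or Fam132a. The control level was highest for Fam132a, at 14.1 ± 1.86 rescaled FPKM (SD, n = 4). The other members followed at 4.33 ± 0.622 for Fut1, 4.31 ± 0.840 for Azgp1, 3.64 ± 0.456 for Iyd, 3.23 ± 0.781 for Hapln4 and 2.69 ± 0.415 for Pkd1l2 (SD, n = 4). From Fut1 down, the ranges over controls overlapped between neighbours in that order. These are low levels beside the elastase, whose control mean was 86296.

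**Figure D1:**
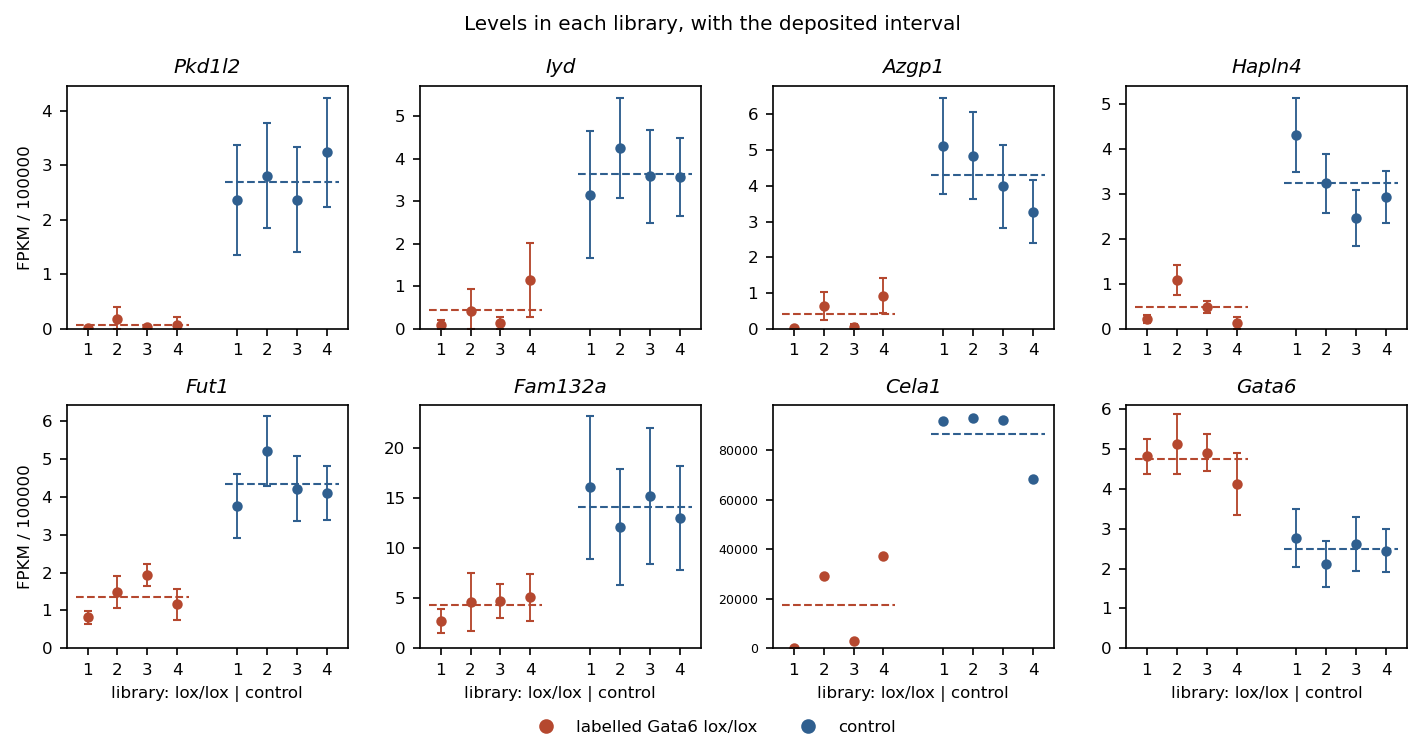
Level of each member, of Cela1 and of Gata6 in each library, as FPKM divided by 100000 with the interval deposited beside it (bars), for 4 libraries labelled Gata6 lox/lox (red, left) and 4 controls (blue, right), with group means as dashed lines. All lox/lox points of the 6 members lie below all controls, while Gata6 lies higher in lox/lox libraries, and the intervals of Iyd and Fam132a overlap between groups.

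The polycystin gene Pkd1l2 (ENSMUSG00000034416, chromosome 8, 119519579 to 119606349 in mm9) had 0.0126, 0.184, 0.0400 and 0.0710 rescaled FPKM in lox/lox libraries 1 to 4, against 2.37, 2.81, 2.37 and 3.23 in controls 1 to 4. The lowest control was 12.9 times the highest lox/lox library, the widest such gap among the 11860 tested genes. This rank carries no weight, because the member was chosen on the same contrast. Pkd1l2 reached the mean of at least 1 needed for testing only through its controls, as did Iyd, Azgp1 and Hapln4. The lox/lox mean was 0.0768 ± 0.0751 and the control mean 2.69 ± 0.415 (SD, n = 4 each), a log2 fold change of -1.77 (SE 0.17) on the log2(rescaled FPKM + 1) scale, which understates changes of low genes. The linear ratio of the means was 35.1-fold in favour of the controls. The lower interval bound was 0 in lox/lox libraries 1, 2 and 4, and the intervals implied 10.4 fragments over the 4 lox/lox libraries against 122 over the 4 controls. At this depth the order of the 4 lox/lox libraries could not be told for Pkd1l2. The uncharacterised gene Gm15395 overlaps the Pkd1l2 locus and did not exceed 0.0491 in any library.

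The iodotyrosine deiodinase gene Iyd (ENSMUSG00000019762, chromosome 10, 6791664 to 6806301) had 0.101, 0.421, 0.135 and 1.15 rescaled FPKM in lox/lox libraries 1 to 4, against 3.15, 4.26, 3.58 and 3.57 in controls 1 to 4. Lox/lox libraries 1 and 3 had the lowest values, with intervals that overlapped that of library 2, and the groups did not overlap. The means were 0.452 ± 0.489 in lox/lox libraries and 3.64 ± 0.456 in controls (SD, n = 4 each), with a log2 fold change of -1.73 (SE 0.23). The upper bound in a lox/lox library reached 2.02, above the lowest lower bound in a control, 1.66.

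The zinc-alpha-2-glycoprotein gene Azgp1 (ENSMUSG00000037053, chromosome 5, 138422749 to 138431461) had 0.0184, 0.648, 0.0629 and 0.933 rescaled FPKM in lox/lox libraries 1 to 4, against 5.12, 4.85, 3.98 and 3.28 in controls 1 to 4. Its intervals corresponded to whole fragments, namely 1, 11, 3 and 14 in lox/lox libraries against 58, 63, 48 and 56 in controls. Lox/lox libraries 1 and 3 held almost none, and the span within the lox/lox group, 50.8-fold, was the widest of the 6 members. The means were 0.416 ± 0.449 in lox/lox libraries and 4.31 ± 0.840 in controls (SD, n = 4 each), with a log2 fold change of -1.95 (SE 0.24).

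The link protein gene Hapln4 (ENSMUSG00000007594, chromosome 8, 72607428 to 72614761) had 0.222, 1.08, 0.485 and 0.128 rescaled FPKM in lox/lox libraries 1 to 4, against 4.30, 3.23, 2.46 and 2.93 in controls 1 to 4. Here lox/lox library 4, which kept the most Cela1, was the lowest, with 4 whole fragments, and library 2 was the highest, with 41. The 4 controls had 62 to 108 fragments. The means were 0.479 ± 0.429 in lox/lox libraries and 3.23 ± 0.781 in controls (SD, n = 4 each), with a log2 fold change of -1.54 (SE 0.23).

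The fucosyltransferase gene Fut1 (ENSMUSG00000008461, chromosome 7, 52872976 to 52876429) had 0.816, 1.49, 1.94 and 1.16 rescaled FPKM in lox/lox libraries 1 to 4, against 3.77, 5.22, 4.21 and 4.11 in controls 1 to 4. The lowest control was 1.95 times the highest lox/lox library, the narrowest gap among the members. The means were 1.35 ± 0.477 in lox/lox libraries and 4.33 ± 0.622 in controls (SD, n = 4 each), with a log2 fold change of -1.20 (SE 0.17). Its whole fragments, however, numbered 80, 48, 177 and 33 in lox/lox libraries against 80, 128, 98 and 135 in controls. The lower FPKM in lox/lox libraries thus depended on what 1 fragment was worth there.

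The adipolin gene Fam132a (ENSMUSG00000023571, chromosome 4, 155336427 to 155340738) had 2.70, 4.62, 4.75 and 5.10 rescaled FPKM in lox/lox libraries 1 to 4, against 16.1, 12.1, 15.2 and 13.0 in controls 1 to 4. The lox/lox libraries spanned only 1.89-fold, the narrowest range among the members. The means were 4.29 ± 1.08 in lox/lox libraries and 14.1 ± 1.86 in controls (SD, n = 4 each), with a log2 fold change of -1.53 (SE 0.19). The intervals were wide, and the highest upper bound in a lox/lox library, 7.50, exceeded the lowest lower bound in a control, 6.27. They implied 80.5 fragments over the 4 lox/lox libraries against 83.2 over the 4 controls. These were not whole counts and describe precision only, but they were not clearly fewer in lox/lox libraries. Apart from Iyd and Fam132a, the deposited intervals were separate between the groups, for 4 members. The share of all genes with separate intervals was not determined.

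By limma on log2(rescaled FPKM + 1), all 6 members were among the genes called lower at a Benjamini-Hochberg adjusted p under 0.05, which were 0.194% of those tested. This count and the counts of members in the fits below use the contrast by which the members were chosen. They describe it and carry no weight of their own. With 1 library left out, 6 members passed without lox/lox library 2, where 0.312% of all genes were called lower, and 6 without lox/lox library 4, where 10.1% were. Without lox/lox library 1 or control 4, 2 members passed, against 0.0506% and 0.0422% of all genes. Without lox/lox library 3 or control 1, 2 or 3, 1 member passed, against 0.0253% to 0.0843%. None passed with title prefix as a covariate or under equal-sum scaling, where 0.00843% and 0% of all genes were called lower. Without lox/lox libraries 1 and 3, 1 member passed, against 0.0169%. Under implied-total scaling and with a pseudocount of 0.1, 3 members passed in each, against 0.211% and 0.152%. The boundary of absence of overlap was thin. The closest genes had a lowest control of 1.0004 times the highest lox/lox library just inside it and 0.9993 times just outside it. It held 904 tested genes, 7.62%, so it does not by itself define the members. As the members were chosen for falls without overlap, the size of their gaps carries no weight of its own. A lowest control of at least 2 times the highest lox/lox library, met by 5 of the 6 members, was found for 26 tested genes, 0.219%.

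The titles begin with BKD for control 1 and lox/lox libraries 1, 3 and 4, with ASK for controls 2 to 4 and with BSH for lox/lox library 2. Xist, expressed from the inactive X chromosome, was at or under 0.00932 in the BKD libraries and 17.3 to 32.0 in the others, so sex and title prefix cannot be told apart. The median log2 fold change of the members was -1.72 within BKD titles and -1.48 within ASK and BSH titles, each with 1 library in a group, and -1.63 over all 8 libraries. Hapln4 differed most, at -2.06 within BKD titles and -0.89 within ASK and BSH titles. The absence of overlap within each set of titles is fixed by the choice of members. The median of all tested genes over the 8 libraries was 0.10.

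The scale of the FPKM decided how much of the fall remained. Scaling all libraries to an equal sum outside the digestive enzymes moved the median of all genes to 0.90, and scaling to the implied fragment totals moved it to 1.26. The implied totals leave out the 8 genes without an estimate, here and in the values per 1000000 implied fragments. Under the implied totals Pkd1l2 had a log2 fold change of -1.67, Azgp1 of -1.70, Iyd of -1.37 and Hapln4 of -0.96, while Fut1 had -0.24 and Fam132a -0.32. Of the 6 members, 5 were lower without overlap under equal sums, where 0.354% of all genes were, and 4 under the implied totals, where 0.371% were. Counted per 1000000 implied fragments, Azgp1 had 1.34 ± 1.21 in lox/lox libraries and 8.14 ± 0.464 in controls (SD, n = 4 each). Hapln4 had 5.28 ± 3.36 in lox/lox libraries and 13.3 ± 2.13 in controls, again without overlap. Fut1 had 13.8 ± 7.74 in lox/lox libraries and 15.9 ± 3.28 in controls, with overlapping groups. Pkd1l2, Iyd, Azgp1 and Hapln4 were lower without overlap under each scaling. Relative to the median of all genes, Fut1 lay at -1.50 and Fam132a at -1.58 under the implied totals, against -1.29 and -1.63 as deposited.

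**Figure D2:**
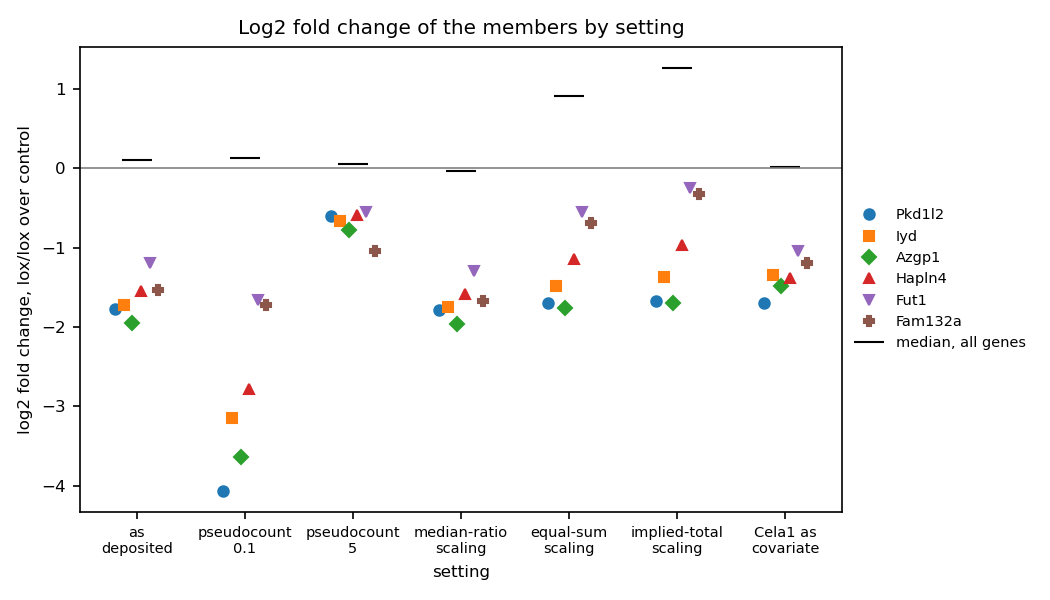
Log2 fold change (lox/lox over control, log2 of rescaled FPKM plus pseudocount) of the 6 members under 7 settings, with the median of all tested genes as a black bar. All values of the members are below 0, and under implied-total scaling Fut1 (-0.24) and Fam132a (-0.32) lie closest to 0 while the median of all genes lies at 1.26.

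Whether the falls went with that of the acinar enzymes was asked in the lox/lox libraries, whose Cela1 differed 285-fold. Cela1 stood at 0.151%, 34.0%, 3.45% and 43.2% of its control mean in lox/lox libraries 1 to 4, and the median of 22 digestive enzymes at 1.12%, 48.2%, 10.4% and 65.9%. The point values of Iyd and Azgp1 put the 4 libraries in the same order as Cela1, with library 1 lowest, then 3, 2 and 4. By the deposited intervals, Azgp1 was lower in libraries 1 and 3 than in 2 and 4, with no order inside either pair, and Iyd was higher in library 4 than in 1 or 3, while library 2 overlapped all others. Iyd stood at 2.79%, 11.6%, 3.70% and 31.7% of its control mean in libraries 1 to 4, and Azgp1 at 0.426%, 15.0%, 1.46% and 21.7%. Hapln4 had another order, with 6.88%, 33.4%, 15.0% and 3.97%, and was thus far below Cela1 in library 4. Pkd1l2 stood at 0.466%, 6.82%, 1.49% and 2.63%, low also in libraries 2 and 4, which kept the most enzyme. Fut1 stood at 18.9%, 34.3%, 44.8% and 26.9%, and Fam132a at 19.2%, 32.8%, 33.8% and 36.2%. These 2 genes were therefore well above the share of Cela1 in libraries 1 and 3 and near or under it in libraries 2 and 4.

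**Figure D3:**
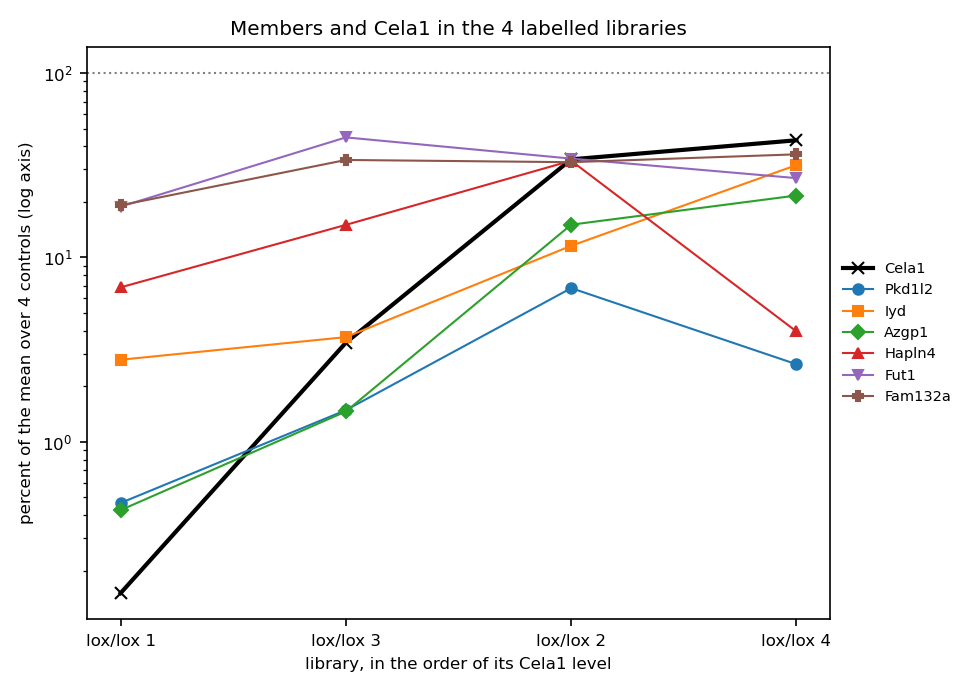
Level of each member and of Cela1 in the 4 libraries labelled Gata6 lox/lox, as a percentage of the mean over 4 controls on a log axis, with the libraries in the order of their Cela1. Cela1 spans 0.151% to 43.2%, the point values of Azgp1 and Iyd keep its order, Pkd1l2 stays at or under 6.82%, and Fut1 and Fam132a stay between 18.9% and 44.8%.

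The relation was then fitted by limma as a slope on log2 Cela1 within genotype, over all 8 libraries and 11859 genes. This slope was not what the members were chosen by, although the absence of overlap bounds their spread. None of the 6 members passed at an adjusted p under 0.05, against 1597 genes, 13.5%, in either direction. At an unadjusted p under 0.05 were 3 of 6, all with positive slopes. Among all genes 33.8% were, 1697 with a positive and 2313 with a negative slope. All 6 members had positive slopes, which lay above those of 65.1% to 87.0% of all genes. Of 21 digestive enzymes, 18 passed with a positive slope, against 6.43% of all genes, and their median slope was 0.69, against -0.02 over all genes. In units of log2 level per log2 Cela1, the slope was 0.111 ± 0.0356 (SE) for Azgp1 (limma adjusted p = 0.0785), 0.0907 ± 0.0373 for Iyd (0.138) and 0.0803 ± 0.0282 for Fam132a (0.0957). It was 0.0369 ± 0.0344 for Fut1 (limma adjusted p = 0.487), 0.0366 ± 0.0489 for Hapln4 (0.633) and 0.0172 ± 0.0317 for Pkd1l2 (0.736). A pseudocount of 1 flattens values under 1, where most lox/lox values of Pkd1l2, Iyd, Azgp1 and Hapln4 lay. The slopes of these members and of the enzymes therefore cannot be compared directly. With a pseudocount of 0.1 the slope of Azgp1 was 0.383 and passed (limma adjusted p = 0.0200), while that of Iyd was 0.268 (0.0578) and that of Pkd1l2 0.118 (0.315). Azgp1 also passed under implied-total scaling (slope 0.171, limma adjusted p = 0.0425), and Fam132a under median-ratio scaling (0.104, 0.0415). Of 11859 genes, 837 passed with a positive and 524 with a negative slope at a pseudocount of 0.1. Under implied-total scaling 199 passed with a positive and 8825 with a negative slope, and under median-ratio scaling 1374 and 482 did. The slopes of Fut1 and Fam132a turned negative under equal-sum scaling, at -0.0575 and -0.0374, and under implied totals, at -0.128 and -0.133. That of Hapln4 turned to -0.0367 under implied totals. Leaving out lox/lox library 1 gave slopes of 0.230 for Azgp1, 0.189 for Iyd and 0.0142 for Fam132a, and leaving out lox/lox library 4 gave 0.0450 for Iyd. For Pkd1l2 the slope was 0.00727 without lox/lox library 2, and for Hapln4 and Fut1 it was 0.0970 and 0.0643 without lox/lox library 4. None of these passed. Leaving out lox/lox library 1 also turned that of Fut1 to -0.0964 and that of Hapln4 to -0.00154, and leaving out lox/lox library 2 turned that of Hapln4 to -0.0102. Cela1 varied 1.36-fold among controls and 285-fold among lox/lox libraries, so the slopes rested mostly on the 4 lox/lox libraries. A missed threshold with 4 libraries a group does not show that a member varied independently of Cela1.

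**Figure D4:**
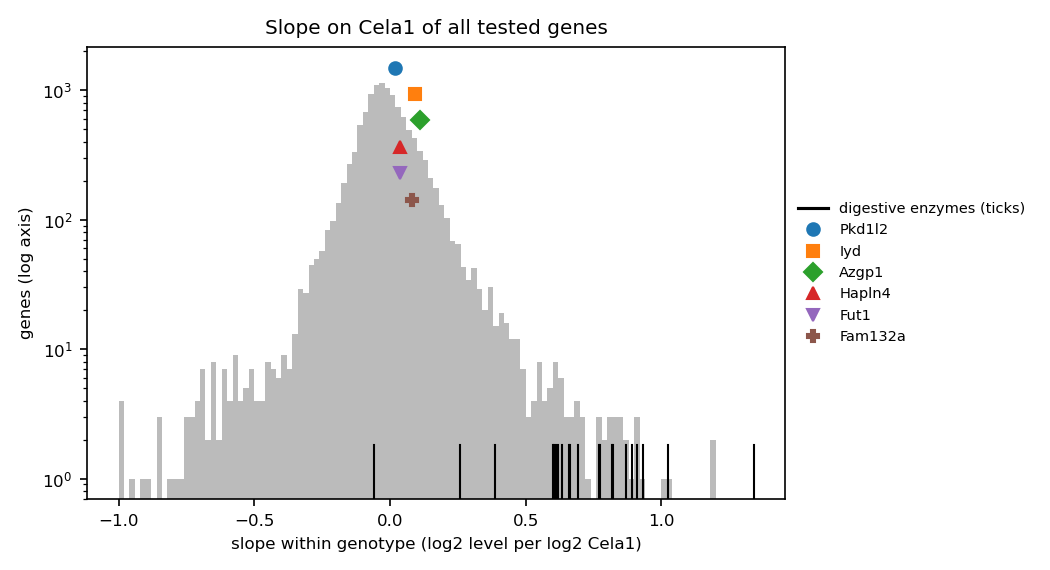
Histogram (log axis) of the slope of each of 11859 tested genes on log2 Cela1 within genotype, with values beyond the axis gathered at its ends, the 6 members as symbols at arbitrary heights and the digestive enzymes as black ticks. The members lie between 0.0172 and 0.111, and the enzymes have a median of 0.69. The pseudocount of 1 flattens levels under 1, where most lox/lox values of Pkd1l2, Iyd, Azgp1 and Hapln4 lay. Their slopes and those of the enzymes therefore cannot be compared directly.

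With log2 Cela1 as a covariate, the genotype coefficient was -1.70 (SE 0.20) for Pkd1l2, -1.48 (0.22) for Azgp1, -1.39 (0.31) for Hapln4, -1.34 (0.23) for Iyd, -1.19 (0.18) for Fam132a and -1.04 (0.22) for Fut1. These lay 0.07 to 0.47 above the values without the covariate on the log2 scale, and all 6 were negative, as a straight-line fit extends them to equal Cela1. The pseudocount of 1 flattens levels under 1, so for Pkd1l2, Iyd, Azgp1 and Hapln4 the size of this shift is not settled. The covariate was not fitted with another pseudocount. None of the members was called in the fit with the covariate, in which 1 gene, 0.00843% of those tested, was called lower. Without lox/lox libraries 1 and 3, the median log2 fold change of the members was -1.43, while Cela1 in the libraries left was 29364 and 37260.

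Among themselves, the members were compared by the root mean square difference of their log2 profiles over the 8 libraries, each set to 0 at its control mean. Iyd and Azgp1 were closest, at 0.252, and Azgp1 and Fut1 farthest apart, at 0.648. By the same measure, the profile most like that of Pkd1l2 was that of Usp2, a deubiquitinase (0.273), then Cldn9, a claudin (0.318), and Pgf, placental growth factor (0.337). Usp2 was also nearest to Iyd (0.231), with Cyp39a1, an oxysterol hydroxylase (0.231), and Lcat, which esterifies cholesterol in plasma (0.239). Azgp1 was nearest to Slc39a11, a zinc transporter (0.262), Apip, an enzyme of methionine salvage (0.303), and Cyp39a1 (0.305). Hapln4 was nearest to Sdr9c7, a short-chain dehydrogenase (0.291), Slc7a8, an amino acid transporter (0.327), and Galnt6, which starts mucin-type glycans (0.352). Fut1 was nearest to Eif2b2, a subunit of a translation initiation factor (0.189), Adm2, a secreted peptide of the calcitonin family (0.192), and Tmem116 (0.236). Fam132a was nearest to Cyp39a1 (0.199), Tmem160 (0.246) and Oscp1 (0.249). Cyp39a1, which recurred beside 3 members, averaged 4.56 ± 1.80 in lox/lox libraries and 15.1 ± 1.22 in controls (SD, n = 4 each). Genes found in this way are lower in lox/lox libraries by construction, so their falls are not tested here.

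None of the tested relatives of the members was called lower. The 6 lists of related genes held 101 genes, of which 41 were tested, and by limma none was called lower or higher, against 0.194% and 0.219% of all genes. At an unadjusted p under 0.05, 6 were lower and 14 higher, against 12.2% and 17.9% of all genes. Without lox/lox library 4, 5 were called lower and 10 higher, against 10.1% and 11.5%. Under implied-total scaling 24 were called higher, against 46.8%. Of the polycystins, 2 of 7 were tested, and Pkd2 averaged 3.90 ± 1.85 in lox/lox libraries and 2.55 ± 0.197 in controls, while Pkd1 averaged 1.63 ± 0.531 in lox/lox libraries and 1.07 ± 0.301 in controls (SD, n = 4 each). Of 22 genes of iodide and thyroid hormone handling, 5 were tested, with a median log2 fold change of 0.26. The thyroid hormone carrier Ttr averaged 7.80 ± 4.75 in lox/lox libraries and 12.1 ± 3.43 in controls, and the thyroid hormone responsive Thrsp 14.7 ± 6.98 in lox/lox libraries and 3.70 ± 2.09 in controls (SD, n = 4 each; limma adjusted p = 0.326 and 0.103).

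All 6 tested class I-like genes were on the higher side, opposite to Azgp1, and 4 were higher without overlap, as were 10.9% of all genes. B2m, the light chain of class I molecules, averaged 302 ± 169 in lox/lox libraries and 83.0 ± 28.1 in controls (SD, n = 4 each; limma adjusted p = 0.104), beside the higher myeloid marker sum. Of 23 genes of hyaluronan and link proteins, 8 were tested, 6 on the higher side and 2 on the lower, with a median log2 fold change of 0.54. The 2 of highest mean were those on the lower side. Without overlap, 1 gene of the list (Itih4) was lower and 3 were higher, against 7.62% and 10.9% of all genes. Itih4, whose product belongs to the family that attaches to hyaluronan in serum, averaged 11.8 ± 12.3 in lox/lox libraries and 45.0 ± 15.3 in controls (SD, n = 4 each; limma adjusted p = 0.122), and Itih2 averaged 5.25 ± 4.85 in lox/lox libraries and 8.67 ± 1.72 in controls. Of 18 genes of fucosylation, 12 were tested, with a median log2 fold change of 0.05. At an unadjusted limma p under 0.05, 4 of the 12 were lower and 0 higher, against 12.2% and 17.9% of all genes. The Golgi protein gene Slc35c2 averaged 21.3 ± 12.4 in lox/lox libraries and 39.3 ± 8.29 in controls (SD, n = 4 each; limma adjusted p = 0.156), and the fucosidase Fuca1 averaged 27.3 ± 6.80 in lox/lox libraries and 23.5 ± 4.89 in controls. Of 20 genes of the C1q/TNF family and its receptors, 8 were tested. Without overlap, 1 of these (Adipor1) was lower and 2 were higher. The fat cell hormone Adipoq averaged 42.2 ± 13.9 in lox/lox libraries and 12.1 ± 8.56 in controls (SD, n = 4 each; limma adjusted p = 0.0959), on the opposite side from Fam132a and beside the higher adipocyte marker sum. Its receptor gene Adipor1 averaged 12.9 ± 2.95 in lox/lox libraries and 18.3 ± 1.08 in controls (limma adjusted p = 0.128).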

How the data were processed

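PolyA RNA of pancreas from 4 mice labelled Ptf1a-Cre +/KI; Gata6 lox/lox and 4 Ptf1a-Cre +/KI mice was sequenced from libraries amplified by 8 PCR cycles, with RNA integrity numbers of 7.1 to 8.8, per the labels' protocols. The authors deposited 1 table of FPKM per gene and library with lower and upper bounds. Per the submitters' processing notes, which give no roles, the tools included Cufflinks 2.0.1, Bowtie, TopHat2 2.0.4 and CASAVA 1.8, and the builds mm9 and NCBIM37. The deposited FPKM were divided by 100000 in every library. Each table has 36448 entries, in which 14 of 36432 identifiers occupy more than 1. Fragments behind a value were taken as the square of the ratio of the value to the interval's standard error, assuming counting error. They were whole within 0.01 for Azgp1, Hapln4 and Fut1. For the other members they only describe precision. Intervals cover counting and assignment error only. The depth is otherwise not given by FPKM.

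Genes with a mean of at least 1 over the 8 libraries, 11860 in all, entered limma 3.58.1 (R 4.3.3, trend) on log2(rescaled FPKM + 1), with Benjamini-Hochberg adjustment at 0.05. 8 genes listed at 0 without an estimate in at least 1 library, digestive enzymes among them, were left out. The fit was tested on simulated data. Replicate numbers are in accession order and pair no samples. The members and all gene lists were chosen with earlier results of these data known. Named genes are the members, Gata6, Cela1, the 3 genes of most alike profile for each member (predicted genes, small RNAs and chromosome 18 left out) and, in each related list, the genes that passed or else the 2 of highest mean. Promoter sequences are from RefSeq, GRCm38.p6. 4 of 6 members matched. Alternatives were other pseudocounts, minima, scalings, covariates and subsets of the libraries. Python 3.11.15, numpy 2.4.6, pandas 2.3.3, scipy 1.17.1 and matplotlib 3.10.9 were used.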

Additional observations from a re-analysis of the deposited data

Results flagged for a closer look

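In 36 named genes, 72 groups of 4 libraries were examined for a library far from the other 3 (by Dixon's critical value for the gap over the range), and 5 such values were found, where chance gives about 1 in 20 groups. Cela1 was 68300 rescaled FPKM in control 4, below the other controls. Pgf was 5.47 in control 4, above the other controls. Sdr9c7 was 0.550 in lox/lox library 2 and at 0 in the other lox/lox libraries, and it was 3.33 in control 2, above the other controls. Oscp1 was 1.84 in lox/lox library 1, below the other lox/lox libraries. None of the 6 members had such a value.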

How the results depend on the processing

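All 6 members kept a negative log2 fold change under every alternative in which they were tested, which their choice fixes where libraries are only left out. Only Fam132a was tested at a mean of at least 5. Their median was -2.97 with a pseudocount of 0.1, -0.63 with 5, -1.31 under equal-sum scaling and -1.17 under implied-total scaling. When intervals were compared in place of values, 4 of the 6 did not overlap. The share of all genes with separate intervals was not determined, so this count is a description only. The number of genes called higher, 26, was 14 with a pseudocount of 5, 5549 under implied-total scaling (25 lower), 0 within BKD titles (limma; 382 at an unadjusted p under 0.05), 89 within ASK and BSH titles, 4 with title prefix and 5 with Cela1 as covariate, and 11 without lox/lox libraries 1 and 3. With 1 library left out it was 7 to 1366, the highest without lox/lox library 4. The number called lower, 23, was 11 with no minimum, 15 at a mean of at least 5, 0 under equal-sum scaling (limma; 24 higher, and 121 lower at an unadjusted p under 0.05), 2 within ASK and BSH titles, 1 with title prefix and 1 with Cela1 as covariate, and 2 without lox/lox libraries 1 and 3. With 1 library left out it was 3 to 1200, again highest without lox/lox library 4. Related genes called higher, 0, were 24 under implied-total scaling and 1 within ASK and BSH titles, and 0 to 10 with 1 library left out. Those called lower, 0, were 0 to 5. Genes called for the Cela1 slope, 1597, were 2995 with no minimum and 9024 under implied-total scaling, and 183 to 1753 with 1 library left out, the lowest without lox/lox library 4. The cause of these shifts was not tested.

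Slopes on Cela1 changed sign for Hapln4 at -0.0367 under implied-total scaling, at -0.00154 without lox/lox library 1 and at -0.0102 without lox/lox library 2 (-0.0102 to 0.0970 with 1 library left out). They changed sign for Fut1 at -0.0575 under equal-sum scaling, -0.128 under implied totals and -0.0964 without lox/lox library 1 (-0.0964 to 0.0643 with 1 library left out), and for Fam132a at -0.0374 under equal-sum scaling and -0.133 under implied totals. Gata6 had a log2 fold change of 0.72, and of 0.57 within BKD titles, 0.85 within ASK and BSH titles (exact permutation p = 0.25, the smallest possible, for each) and 0.69 without lox/lox libraries 1 and 3 (exact permutation p = 0.0667, again the smallest possible). The low fragment numbers of Pkd1l2, Iyd and Azgp1 in lox/lox libraries limit any order among those libraries. No paired analysis was possible because the replicate numbers follow accession order and the labels pair no mice.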
